A study of Mus musculus with 6 samples.

Results

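A set of 10 genes that mark the stroma of the uterus was followed: Thy1, Pdgfra, Pdgfrb, Dcn, Lum, Vcan, Hand2, Nr2f2, Tcf21 and Fbln1. They were read in whole uteri of mice of the Arid1a genotypes f/f and d/d. They were chosen by name, as all probe sets to which the platform annotation gives exactly 1 of these symbols. This gave 26 probe sets of 41420 on the array, for 10 genes of 16813. A probe set is a group of short oligonucleotides that reads the RNA of 1 gene. The arrays came from 3 samples of genotype Arid1a f/f and 3 of genotype Arid1a d/d, all of them uteri of intact female mice at the age of 2 weeks, with no treatment. In the usual notation f is an allele flanked by recombination sites and d is the deleted allele. The Cre line, the cells in which it acts and any pooling of animals are not given in the sources used here. The protein of Arid1a belongs to the SWI/SNF complexes, which remodel chromatin, and the study asks about its part in the development of the endometrial glands.

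The endometrial stroma is the connective tissue between the epithelium and the muscle of the uterus. Its fibroblasts receive growth factor signals, build a matrix of collagens and proteoglycans, and carry transcription factors through which they answer the epithelium and the ovarian hormones. Glands form in young mice as the luminal epithelium buds into this tissue.

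All values below are log2 intensities, in which a step of 1 is a doubling, and all differences are d/d minus f/f. The genotypes were compared with limma over all probe sets, and a probe set was called at an adjusted p under 0.05. Before log2 the arrays had median intensities of 6.34 to 6.59, and the median of all log2 values, 2.69, serves as the mark below which a probe set is close to background. Array d/d 1 stood apart from the other d/d arrays: on the first principal component (42.6% of the variance) it lay at -11.9, among the f/f arrays (-29.4 to -6.95), and the others of its genotype were at 37.2 and 28.8. Arid1a itself was lower in d/d, with a difference of -0.58 ± 0.09 (SE, limma adjusted p = 0.0342). Its d/d values of 6.98, 7.06 and 7.04 stayed well above 2.69.

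The differences of the stroma markers had either sign, and whether they are unlike one another was not tested. Thy1 fell 2.09-fold and was the member that passed the test. Dcn lay lower and Vcan higher in all d/d arrays without passing it, the transcription factors Hand2 and Nr2f2 were not called, and Tcf21 was not measured above background. Of the 26 probe sets 1 fell and 0 rose by limma, beside 0.210% lower and 0.314% higher among all probe sets. At an unadjusted p under 0.05 the members were Thy1, both Dcn probe sets, the Lum probe set and 3 of 8 Vcan probe sets, and 9.85% of all probe sets met that mark. The d/d values lay wholly below the f/f values in 4 member probe sets and wholly above in 3, against 7.47% and 6.67% of all probe sets. By the brightest probe set of each gene, 9 of the 10 genes had a negative difference, Tcf21 near background among them, and 1, Vcan, a positive one, beside 8979 negative ones among all 16813 genes. The median difference was -0.26, beside -0.011 over all genes. In a bulk sample, fewer cells of a type and less RNA per cell cannot be told apart.

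**Figure D1:**
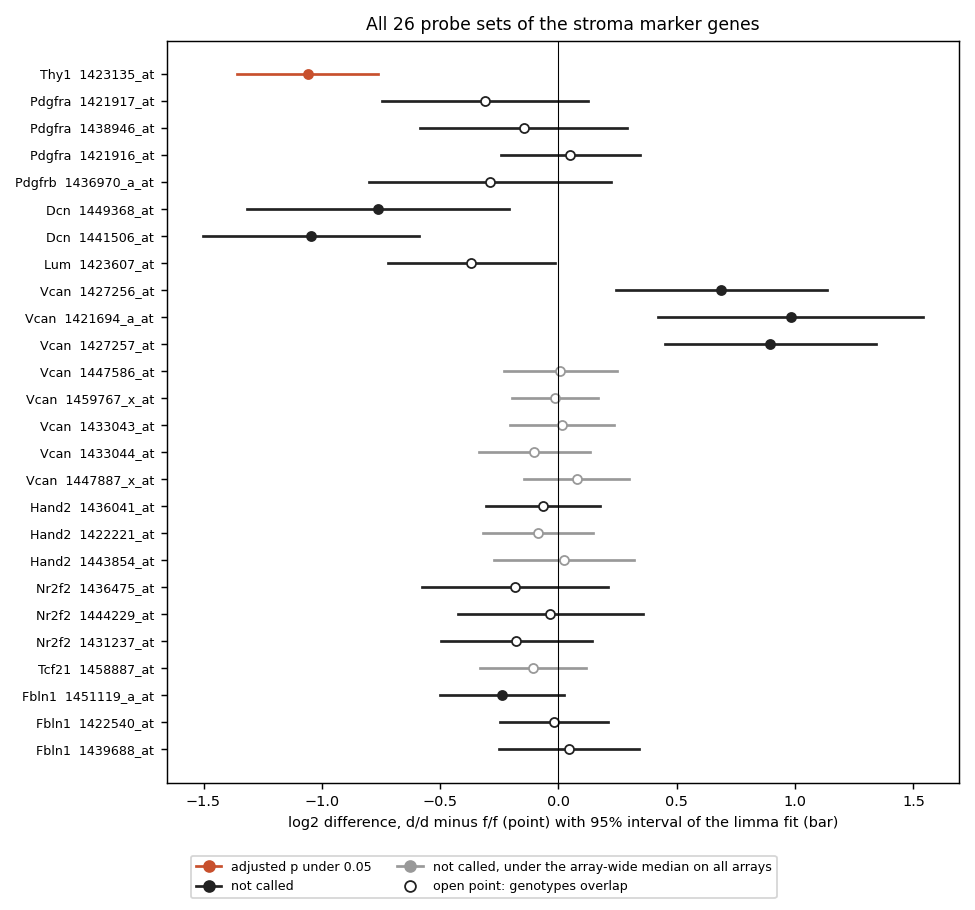
Differences d/d minus f/f (log2, horizontal axis) of the 26 probe sets, with the 95% interval of the limma fit as bars; filled points are probe sets whose genotypes do not overlap, and grey marks those under the array-wide median on all 6 arrays. Thy1 stands at -1.06, the Dcn probe sets lie to its right at -1.05 and -0.76, the 3 bright Vcan probe sets lie between 0.69 and 0.98, and the intervals of Hand2, Nr2f2, Tcf21 and Fbln1 include 0.

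Of the 26 probe sets 18 lay above 2.69 on all 6 arrays and 8 lay below it on all 6. The 8 were 5 of the Vcan probe sets, 2 of the Hand2 probe sets and the Tcf21 probe set, so Tcf21 has no measurement clear of background. The other 9 genes each had at least 1 probe set above the mark on every array, so the uteri of both genotypes held the RNA of these stroma markers.

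**Figure D2:**
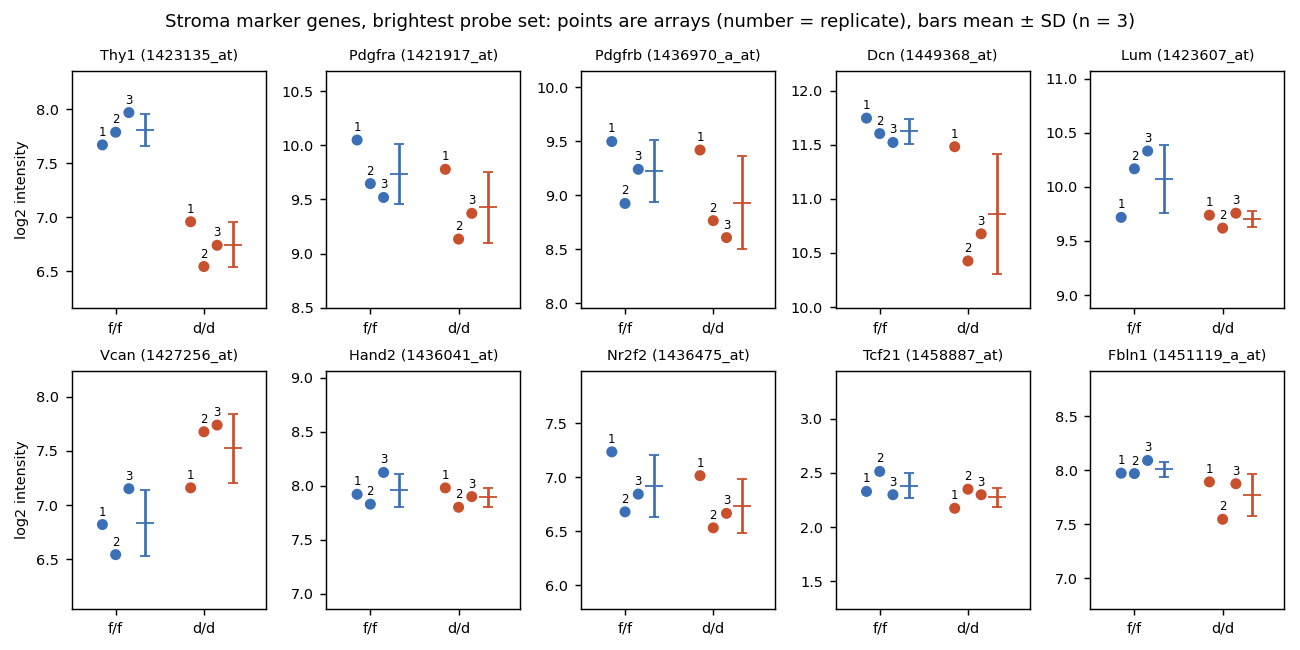
Log2 intensity (vertical axis, each panel spanning the same range) of the brightest probe set of each gene in the 3 f/f (blue) and 3 d/d (orange) arrays, numbered by replicate, with mean ± SD (n = 3). Thy1, Dcn and Fbln1 are lower and Vcan higher in every d/d array than in every f/f array, and the genotypes overlap in the other 6 panels.

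Among the surface proteins, Thy1 was lower in d/d. Thy1 encodes CD90, a small glycoprotein anchored to the outer cell membrane, and is a common marker of fibroblasts that T lymphocytes and neurons also carry in mice. Its probe set measured 7.67, 7.79 and 7.97 in f/f 1, 2 and 3, against 6.96, 6.54 and 6.74 in d/d 1, 2 and 3, which corresponds to intensities of 204, 221 and 251 against 124, 93.3 and 107. The groups were separated by a gap wider than the spread within either. The means were 7.81 ± 0.15 and 6.75 ± 0.21 (SD, n = 3), a 2.09-fold fall (log2 difference -1.06 ± 0.13 SE, 95% interval -1.36 to -0.76; limma adjusted p = 0.0169). The call was lost without any 1 of the arrays numbered 2 or 3, with an adjusted p of 0.103 and 0.0894 for those of f/f and of 0.0663 and 0.0908 for those of d/d, and with 8 added to every intensity before log2 (0.0670). The difference itself stayed between -1.24 and -0.96 in all 17 alternatives.

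The genes whose values followed Thy1 most closely over the 6 arrays were Pcdh19, a protocadherin, Adcy7, an adenylyl cyclase, and Tspan11, a tetraspanin. Their root mean square differences from Thy1, after each gene was centred on its own mean, were 0.065, 0.11 and 0.12 on the log2 scale, among 10559 genes compared. Pcdh19 measured 4.90, 5.05 and 5.08 in f/f against 4.09, 3.65 and 3.87 in d/d. This likeness describes these 6 arrays and holds no test.

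Markers of the other cell types that carry Thy1 were not called. Of 6 measured T lymphocyte markers 0 passed. The summed intensity of the 6 was at least 43.4 in f/f and at most 41.2 in d/d. The means of the 6 over all arrays ran from 1.81 for Cd28 to 3.44 for Cd4. With values this close to background, the sum is no measure of T lymphocyte content. Cd3d, Cd3e and Cd247, 3 chains of the T cell receptor complex, had means of 3.21, 2.91 and 2.50 in f/f, and of 2.85, 2.71 and 2.69 in d/d, close to the median of all values, with differences of -0.36, -0.20 and 0.19. Of 8 measured neuron and nerve markers 0 passed, 4 lay below 2.69 on every array, and the summed intensity ran from 59.4 to 80.3 in f/f and from 68.6 to 95.7 in d/d. Their differences had either sign: Gap43, a gene of growing axons, had a difference of 0.81 ± 0.37 with overlapping groups, and Uchl1, a ubiquitin hydrolase of neurons, was lower in all d/d arrays, at -0.35 ± 0.12 (SE; limma adjusted p of 0.534 and 0.359). Gap43 was the brightest of the 8, with a mean of 5.04 over all arrays, beside 3.54 for Stmn2, the next brightest. The sum of the 8 therefore follows mainly Gap43 and is no measure of nerve content. The part of T lymphocytes and neurons in the fall of Thy1 was not tested. Of 3 measured Schwann cell markers, from a list of 6, 0 passed, and their sum lay between 30.4 and 32.7 on all arrays.

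Pdgfra and Pdgfrb, the receptors for platelet-derived growth factors on fibroblasts and on pericytes, were not called. The brightest Pdgfra probe set measured 10.05, 9.65 and 9.52 in f/f against 9.78, 9.13 and 9.37 in d/d. The groups overlapped, and the difference was -0.31 ± 0.19 (SE, 95% interval -0.75 to 0.12; limma adjusted p = 0.677). Its dimmer probe sets gave -0.15 and 0.051. Pdgfrb measured 9.50, 8.92 and 9.24 in f/f against 9.42, 8.76 and 8.61 in d/d, with a difference of -0.29 ± 0.22 (SE, 95% interval -0.80 to 0.22; limma adjusted p = 0.762). The arrays numbered 1 were the highest of their genotype for both receptors. Both intervals include 0 and also falls larger than the estimates. With each array left out in turn the differences ran from -0.49 to -0.15 for Pdgfra and from -0.53 to -0.13 for Pdgfrb, each lowest without d/d 1 (limma adjusted p of 0.213 and 0.165).

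The ligands of these receptors had differences of either sign. Pdgfd, which signals mainly through the beta receptor, measured 7.03, 6.88 and 6.84 in f/f against 6.33, 6.21 and 6.10 in d/d. It fell by 0.70 ± 0.10 (SE; limma adjusted p = 0.0282) and was the 1 of 4 ligands that passed. Pdgfa, a ligand of the alpha receptor that epithelia make, was higher in all d/d arrays, at 7.06, 7.24 and 7.05 against 6.45, 6.65 and 6.57, but did not pass (difference 0.56 ± 0.10 SE; limma adjusted p = 0.0603). Fitted with 1 probe set per gene it did pass (limma adjusted p = 0.0468). Pdgfb, the ligand made by endothelium that draws pericytes to vessels, had a difference of -0.44 and Pdgfc of 0.11, and neither passed. Among the brightest probe sets of all genes 0.345% fell and 0.506% rose.

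Among the matrix genes, Dcn was lower and Vcan higher in every d/d array. Dcn encodes decorin, a small leucine-rich proteoglycan that binds collagen fibrils. Its bright probe set measured 11.75, 11.60 and 11.52 in f/f against 11.48, 10.43 and 10.68 in d/d. The array d/d 1 lay just under the lowest f/f value, and d/d 2 and d/d 3 lay clearly below. The SD was 0.11 in f/f and 0.55 in d/d (n = 3), and the difference of -0.76 ± 0.24 (SE, 95% interval -1.31 to -0.21) did not pass (limma adjusted p = 0.304). The dimmer Dcn probe set measured 4.54, 4.43 and 4.18 in f/f against 3.82, 3.10 and 3.09 in d/d, a difference of -1.05 ± 0.20 (SE; limma adjusted p = 0.0780). It passed with array weights (limma adjusted p = 0.0415), which called 2 of the 26 member probe sets and 0.794% of all probe sets.

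Vcan encodes versican, a large proteoglycan that binds hyaluronan and loosens the matrix of growing tissues. Its brightest probe set measured 6.82, 6.54 and 7.15 in f/f against 7.16, 7.68 and 7.74 in d/d. Here too the array d/d 1 was next to the f/f range, barely above f/f 3, and the other d/d arrays lay well above it. The difference was 0.69 ± 0.19 (SE, 95% interval 0.24 to 1.13; limma adjusted p = 0.234). The next brightest gave 0.98 ± 0.24 and 0.90 ± 0.19 (SE; limma adjusted p of 0.173 and 0.119), each with all d/d above all f/f. The 5 probe sets near background gave -0.10 to 0.077, and the mean of all 8 gave 0.32. The Vcan difference minus the Dcn difference, a pair chosen after its values were seen, was 1.45 by the brightest probe sets. With Vcan higher and Dcn lower in every d/d array, a permutation of the arrays has a fixed outcome. No p-value is therefore given for it.

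**Figure D3:**
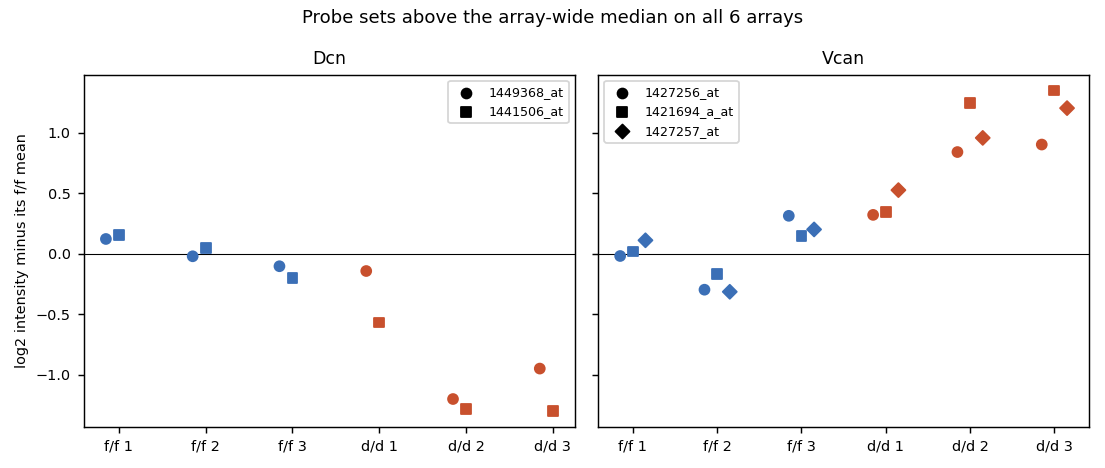
Log2 intensity minus its f/f mean (vertical axis) in each array (horizontal axis) for the 2 Dcn probe sets and the 3 Vcan probe sets that lie above the array-wide median on all arrays; shapes are probe sets, blue is f/f and orange d/d. For both genes the d/d 1 points lie between the f/f points and those of d/d 2 and d/d 3.

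The calls of Dcn and Vcan changed with array d/d 1. Without it, both Dcn probe sets fell, by 1.07 and 1.29 (limma adjusted p of 0.00500 and 0.00296), and the 3 bright Vcan probe sets rose, by 0.87, 1.30 and 1.08 (limma adjusted p of 0.0358, 0.00271 and 0.0150). Members called were then 6 of 26 probe sets, 3 lower and 3 higher, beside 1.35% lower and 0.990% higher among all probe sets. Without both arrays numbered 1, the Dcn probe sets (-1.01 and -1.21) and 2 of the 3 Vcan probe sets (1.31 and 1.14) passed with Thy1, 5 of 26 beside 1.59% of all probe sets, and the brightest Vcan probe set did not (0.86, limma adjusted p = 0.0985). Over the brightest probe sets of the 10 genes, d/d 1 lay nearer to the f/f mean than to the mean of d/d 2 and d/d 3 for 7, all except Thy1, Lum and Tcf21. Of the 18 member probe sets above the median on every array this held for 14 (77.8%), beside 58.9% of all probe sets above that mark. Over all probe sets of any level it held for 55.3%.

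**Figure D4:**
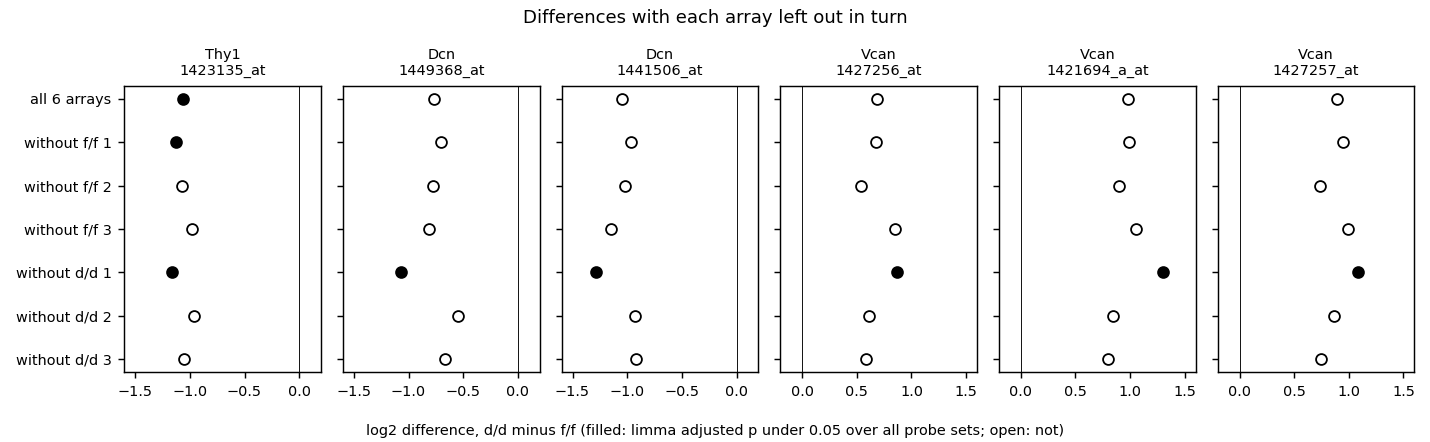
Log2 differences d/d minus f/f (horizontal axes) of the Thy1, Dcn and bright Vcan probe sets with all 6 arrays and with each array left out in turn (rows); filled points have a limma adjusted p under 0.05. Thy1 is filled in 3 of 7 rows, and Dcn and Vcan are filled in the row without d/d 1.

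Vcan is shown by its promoter, as the member that was higher in d/d. The RefSeq sequence of the GRCm38.p6 build covers the 250 bases before the annotated start, chr13:89742513-89742762 on the minus strand, printed 5′ to 3′. Capitals mark CANNTG, the E-box bound by basic helix-loop-helix factors such as Hand2 and Tcf21, and GGGCGG, the GC box, on either strand.
Vcan promoter: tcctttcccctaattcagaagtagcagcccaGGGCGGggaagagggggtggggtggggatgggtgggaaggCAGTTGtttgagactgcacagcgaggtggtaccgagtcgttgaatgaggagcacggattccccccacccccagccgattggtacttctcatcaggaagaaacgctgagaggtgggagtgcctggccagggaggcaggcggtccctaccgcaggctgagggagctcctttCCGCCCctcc
The window holds 1 E-box and 2 GC boxes, of which the nearer ends 4 bases before the start. It holds neither AGGTCA, the core motif of nuclear receptors such as Nr2f2, nor TATAAA, searched on both strands. Windows of this kind were used for 6 of the 10 genes, 7 windows in all, of which 6 held CANNTG and 3 held GGGCGG. Any member windows on 1 chromosome were left out, while the set of all windows kept that chromosome. Among 32851 promoter windows of this length 66.2% held CANNTG, 32.7% GGGCGG, 14.0% AGGTCA and 12.4% TATAAA, so these matches are common ones and mark no site of binding.

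Lum, the gene of lumican, another collagen-binding proteoglycan of the decorin family, measured 9.72, 10.17 and 10.33 in f/f against 9.74, 9.62 and 9.76 in d/d. The groups overlapped through f/f 1, which was as low as the d/d arrays. The difference was -0.37 ± 0.15 (SE, 95% interval -0.72 to -0.02; limma adjusted p = 0.478). Of 10 further measured small leucine-rich proteoglycans 0 passed, with a median difference of -0.11. Bgn, the gene of biglycan and the closest relative of decorin among them, was lower in all d/d arrays (mean 8.66 ± 0.24, against 9.11 ± 0.17 in f/f, SD, n = 3; difference -0.45 ± 0.14 SE; limma adjusted p = 0.309). Podn and Ecm2 had differences of -0.29 and -0.31, and Nyx, below 2.69 on every array, of -0.16.

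The genes that act with or on versican did not pass the test. All 6 measured proteases of the ADAMTS group that can cut versican had negative differences, with a median of -0.24 and 0 called. For 1 of the 6, below 2.69 on every array, the difference was -0.0044, which is no measure of a direction. Adamts9 stood at 6.32, 6.13 and 6.36 in f/f against 6.01, 5.61 and 5.85 in d/d (difference -0.45 ± 0.12 SE; limma adjusted p = 0.220), and Adamts4, Adamts5 and Adamts1 had differences of -0.38, -0.23 and -0.15. Of 10 related proteoglycans and genes of hyaluronan synthesis and binding, 0 passed, and the median was -0.087. The hyaluronan synthase genes Has2, below 2.69 on 5 of 6 arrays, and Has3 had differences of -0.44 and -0.32, Hapln1, the gene of a protein that links hyaluronan to proteoglycans, of -0.43, and the proteoglycan gene Ncan, below 2.69 on every array, of 0.21.

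Fbln1, the gene of fibulin-1, a glycoprotein of basement membranes and elastic fibres, showed a small difference in 1 of its 3 probe sets. The brightest measured 7.97, 7.97 and 8.09 in f/f against 7.89, 7.55 and 7.88 in d/d. All d/d values lay below all f/f values, with a narrow gap between d/d 1 and f/f 2, and the difference was -0.24 ± 0.11 (SE, 95% interval -0.50 to 0.02; limma adjusted p = 0.554). The other bright probe set, at 7.33 ± 0.04 in f/f and 7.31 ± 0.15 in d/d (SD, n = 3), differed by -0.019, and the dimmest by 0.044. Of 11 other measured fibulin and elastic fibre genes 0 passed (median -0.096). Mfap4, a microfibril gene, had the difference furthest from 0 of the named ones, -0.78 ± 0.26 (SE; limma adjusted p = 0.333), with overlapping groups. Fbln2 and Fbln7, the latter below 2.69 on 5 of 6 arrays, had differences of -0.42 and -0.34 and Hmcn1, a fibulin of very large size, of 0.31.

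The transcription factors of the stroma were not called, and their genotypes overlapped. Hand2, a basic helix-loop-helix factor through which progesterone acts in the stroma, measured 7.92, 7.83 and 8.12 in f/f against 7.98, 7.80 and 7.90 in d/d. The arrays of both genotypes were interleaved, and the difference of -0.064 ± 0.105 (SE) has a 95% interval of -0.30 to 0.18 (limma adjusted p = 0.906). Its other 2 probe sets lay below 2.69 on every array, with differences of -0.087 and 0.024.

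Nr2f2 encodes COUP-TFII, a nuclear receptor of the stroma that lies downstream of the hedgehog signal from the epithelium. Its brightest probe set measured 7.23, 6.68 and 6.84 in f/f against 7.01, 6.53 and 6.66 in d/d, with the arrays numbered 1 highest in both genotypes. The difference was -0.18 ± 0.17 (SE, 95% interval -0.58 to 0.21; limma adjusted p = 0.817), and its dimmer probe sets gave -0.035 and -0.18. Tcf21, a basic helix-loop-helix factor of mesenchyme, measured 2.33, 2.51 and 2.30 in f/f against 2.17, 2.35 and 2.30 in d/d. These values lie below the median of all probe sets, so the difference of -0.11 ± 0.10 (SE; limma adjusted p = 0.811) is no measure of a change.

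Of 8 measured genes of the stromal hedgehog and Nr2f2 axis, 3 fell and 5 did not pass. Among the brightest probe sets of all genes 0.345% fell. This list, like the others, was chosen with earlier results of these data known. The genes of the axis that fell were Ihh, the ligand of the epithelium, at -1.49 ± 0.15, and 2 others. Gli1, a transcription factor that answers the signal, stood at -0.96 ± 0.10. Ptch1, the receptor and a target in the stroma, stood at -0.95 ± 0.15 (SE, limma adjusted p of 0.00869, 0.00949 and 0.0444 for Ihh, Gli1 and Ptch1). The d/d values of Ihh, 2.50 to 3.07, reached below 2.69, where background limits the fold. Hhip, a hedgehog-binding inhibitor that lay above 2.69 on only 1 array, f/f 3, had a difference of -0.57 and did not pass. Bmp2, a growth factor of the stroma, at 0.24, did not pass either. That the differences of Ptch1 and Nr2f2 are unlike was not tested.

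Of the 4 fibroblast growth factors that Hand2 is known to hold down in the stroma, 0 passed. Fgf18 was higher in all d/d arrays, at 3.84, 4.50 and 4.24 against 3.38, 3.16 and 3.08, and came close to the threshold (difference 0.99 ± 0.17 SE; limma adjusted p = 0.0541), which it passed when fitted with 1 probe set per gene (0.0468). Fgf1 was lower in all d/d arrays (-0.44 ± 0.13 SE; limma adjusted p = 0.273). Fgf9 differed by 0.15, and Fgf2 lay below 2.69 on every array. Of 7 measured relatives and partners of the 3 transcription factors 0 passed (median 0.056). Twist2 and Tcf15, basic helix-loop-helix factors of mesenchyme, had differences of -0.65 ± 0.14 and -0.51 ± 0.10 (SE; limma adjusted p of 0.113 and 0.0891), with all d/d below all f/f. Tcf12, a partner of such factors, and Nr2f6, a relative of Nr2f2, had differences of 0.19 and 0.26.

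A wider set of 14 measured stromal genes had 0 calls, with 10 lower and 4 higher and a median of -0.17. Hoxa11, a homeobox gene of the uterus, Mmp2, a matrix protease, Igf1, a growth factor of the stroma, and Pdpn, a membrane glycoprotein, were the 4 of smallest p, with differences of -0.42, -0.45, -0.39 and -0.40. All d/d values of these 4 lay below all f/f values, which their choice by p favours. Of the 14 genes 5 lay wholly below and 0 wholly above, beside 1584 and 1193 of all 16813 genes.

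Markers of other cell types had unlike values on the same arrays. All 7 measured fat cell markers of 9 listed, 1 of them below 2.69 on every array, had negative differences (median -1.16, 0 called). Their summed intensity was 604 to 942 in f/f and 204 to 495 in d/d, with d/d 1 at 495. All 6 measured endothelial markers of 9 listed had negative differences (median -0.65, 0 called), with sums of 769 to 819 against 453 to 623. All 6 measured pericyte markers, of cells that carry Pdgfrb, had negative differences (median -0.26, 0 called). Their sums overlapped (752 to 982 against 600 to 854). All 8 measured smooth muscle markers had negative differences (median -0.22, 0 called). The d/d values lay wholly below the f/f values for 3 pericyte and 2 smooth muscle markers, beside 1584 of all 16813 genes. Of 7 measured epithelial markers 2 rose, beside 0.506% among the brightest probe sets of all genes. Muc1, a mucin, rose by 1.03 ± 0.13 (SE, limma adjusted p = 0.0205). Cdh1, which encodes an adhesion protein of epithelia, rose by 1.00 ± 0.15 (SE, limma adjusted p = 0.0357). All 7 differences were positive (median 0.62, sums of 1893 to 2240 against 2958 to 3581). The 5 measured mesothelial markers of 6 listed had a median of 0.10 and 0 called. The 13 measured cell cycle genes of 15 listed had a median of 0.28 with 0 called. Their sum was 472 in d/d 1, below the 601 to 1231 of the f/f arrays. In d/d 2 and d/d 3 the sum was 1627 and 1445. The part of these values in the differences of Thy1, Dcn and Vcan was not tested.

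**Figure D5:**
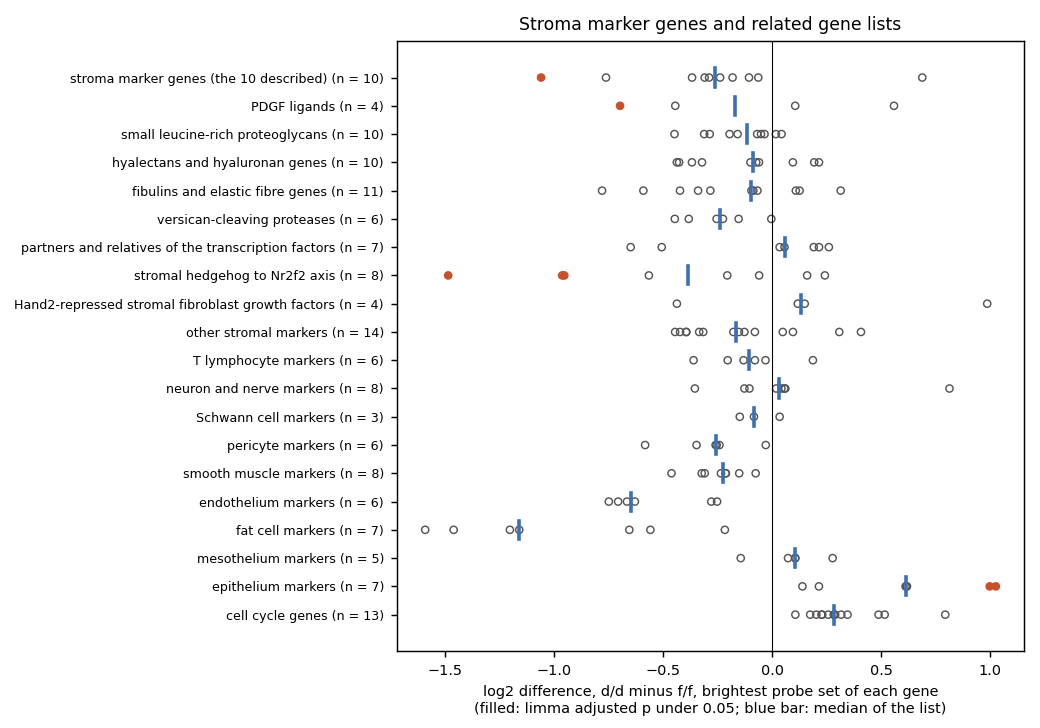
Log2 differences d/d minus f/f (horizontal axis) by the brightest probe set of each gene, for the 10 stroma marker genes and for the other lists (rows); filled points have a limma adjusted p under 0.05 and blue bars are list medians. The stroma marker genes spread from -1.06 for Thy1 to 0.69 for Vcan, with a median of -0.26, between the fat cell markers at -1.16 and the epithelial markers at 0.62.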

How the data were processed

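Expression was measured on Affymetrix arrays, 3 per genotype. The authors deposited 1 intensity per probe set on a linear scale; RMA, which corrects background and normalizes between arrays, is named in the submitters' processing notes, with no version. Small differences near background are compressed by it. Log2 was taken with no constant. All 41420 probe sets were fitted by lmFit and eBayes of limma 3.58.1, run in R 4.3.3 (4 residual and 4.19 prior degrees of freedom, no covariate, 2-sided, Benjamini-Hochberg adjustment over all probe sets). The annotation gave 1 symbol for 31562 probe sets, more than 1 for 830 and no symbol for 9028; a gene in a list is read by its brightest probe set. The labels do not say whether arrays came from separate animals, so the spread behind the p-values is that among these samples and may be technical. The number of arrays limits precision.

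The genes and lists were chosen with earlier results of these data known. Named are all probe sets of the 10 genes, of each other list the called genes and up to 4 of smallest p, Arid1a, and the 3 genes most like each called member (mean level above the median, no clone names). On simulated data over 41420 probe sets, 8 of 50 changes of 1.5-fold were recovered, 41 of 50 of 2-fold, 50 of 50 of 4-fold and 49 of 50 of 8-fold, with 8 false calls among 156. The simulated noise was independent between probe sets and had no shift shared by a whole array, such as that of d/d 1. These rates may therefore not hold for the real arrays. Alternatives were a replicate block, a variance trend with robust estimation, array weights, repeated quantile normalization, median centring, leaving out dim (lowest 40%) or _x_at probe sets, 8 added before log2, 1 probe set or the mean per gene, and leaving out arrays. Scan dates, slides and detection calls were not used here.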

Additional observations from a re-analysis of the deposited data

How the results depend on the processing

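The count of member probe sets past the threshold, 1 of 26, was 2 with the replicate block (Thy1 and the dimmer Dcn probe set, limma adjusted p = 0.0166), 2 with array weights, 0 with 8 added before log2, 5 without both arrays numbered 1 and 0 to 6 with each array left out in turn; the cause was not tested. The counts over all probe sets were 574, 329, 35 and 657 in the first 4 of these, against 217. Equal replicate numbers were not read as a pairing: the correlations of the deviations from the group means were 0.461, 0.0228 and 0.178 for pairs 1, 2 and 3, and f/f 2 had its highest one with d/d 3 (0.160). Thy1 kept its direction in all alternatives, and so did both Dcn, the Lum, the Pdgfrb and the 3 bright Vcan probe sets; where groups do not overlap, leaving out arrays cannot turn a direction. Differences near 0, none of them called, changed sign: Nr2f2 1444229_at to 0.015 with array weights and, without both arrays numbered 1, to 0.090, with Vcan 1447586_at at -0.039, Vcan 1433044_at at 0.00033 and Fbln1 1439688_at at -0.021. With single arrays left out the ranges were -0.29 to 0.084 for Pdgfra 1438946_at, -0.024 to 0.18 for Pdgfra 1421916_at, -0.059 to 0.10 for Vcan 1447586_at, -0.037 to 0.071 for Vcan 1433043_at, -0.0024 to 0.12 for Vcan 1447887_x_at, -0.13 to 0.019 for Hand2 1436041_at, -0.12 to 0.094 for Hand2 1443854_at, -0.20 to 0.082 for Nr2f2 1444229_at, -0.10 to 0.043 for Fbln1 1422540_at and -0.063 to 0.11 for Fbln1 1439688_at. Signal close to background limits Tcf21, 2 Hand2 and 5 Vcan probe sets.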
